A study of Rattus norvegicus with 42 samples.

Results

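Glucocorticoid receptor (GR) binding in rat liver was compared at 140 min of corticosterone (CORT) infusion between rats that received the hormone in pulses and rats that received it at a constant rate. The comparison rested on 4 of the 42 libraries of the series, namely the 2 PEAK_140 and the 2 CONS_140 libraries of GR ChIP-Seq, and covered all 3981 binding regions of the GR table. At 140 min the pulsatile infusion was at its peak, so that both groups were sampled at the same time and under hormone, and the question was how far GR binding differed between the patterns. By the study's design the total dose was matched over the whole infusion, which ran past 140 min, so that equal doses up to 140 min are not implied. Circulating CORT at the time of sampling was higher at the pulse peak than under constant infusion. Pattern, dose received by then and hormone level therefore cannot be told apart. All rats were male Sprague Dawley rats whose adrenal glands had been removed, so that circulating CORT came from the infusion, and their age is not given in the sources used here. PEAK_140 rats were infused hourly with CORT and CONS_140 rats were infused with CORT throughout, with a faster rate in the opening minutes. The vehicle group (VEH) received the pulsatile pattern without CORT and had 1 library at 140 min and 1 at 180 min. Constant infusion at 180 min (CONS_180) and the trough between pulses at 180 min (NADIR_180), with 2 libraries each, entered the model and are cited where they bear on a region. Each library pooled the livers of 6 rats, so that no value belongs to 1 animal and the spread between 2 libraries is a spread between pools. Liver is a mixture of cell types, and fewer cells that bind GR cannot be told apart from less binding per cell.

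GR is a nuclear receptor that stays mostly in the cytoplasm until a glucocorticoid binds it, and then moves to the nucleus and attaches to DNA at glucocorticoid response elements (GREs), or near other bound factors. CORT is the main glucocorticoid of the rat and is secreted in roughly hourly pulses. In liver, GR is known for inducing genes of gluconeogenesis and amino acid breakdown, the clock gene Per1 and its own negative regulators such as Fkbp5. A GRE is made of 2 half-sites that lie head to head around a short spacer, so that 2 receptor molecules sit on it together.

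The sequences below are matches to the GRE motif inside regions on which the results turn, shown so that the binding values can be read beside the DNA that GR contacts. They were copied from a shortened copy of the study's table of motif matches, of which 1999 rows were read. Those rows listed 60 of the 124 regions named by the rule given with the methods and held a match for 25, and the rest of the table was not used here. Each is written 5′ to 3′ on the strand that carries the motif, with one half-site and the opening of the other in capitals and the spacer between them in lower case, and some may be the same element read on both strands. The region that ranked highest under both patterns lay in an intron near AABR07004100.2 (a clone-based gene name of the annotation) at chr1:124775856-124776481 in the rn6 build, and the rest are given by their nearest gene. An intron is that of the transcript holding the region, which need not belong to the nearest gene. The AABR07004100.2 region lay 19990 b upstream of the start of that gene, and the RF00001 region 87146 b from the start of RF00001.
AABR07004100.2 intron: AGAACAtgcTGT
AABR07004100.2 intron, other match: GGAACAgcaTGT
RF00001 intron: GGGACAgcaTGT
Fkbp5 upstream: AGAACAagcTGT
Fkbp5 upstream, other match: AGAACAtgcAGT
Per1 upstream: AGAACAcgaTGT
Per1 upstream, other match: GGAACAtcgTGT
Cdkn1a intron: GGAACAtacTGT
Zfp36 transcript end: GGGACAggaTGT
Hsd11b1 intron: TGAACActtTGT
Rora intron: TGAACAgtcTGT
The AABR07004100.2, RF00001 and Fkbp5 elements belong to regions with close values under both patterns. Those of Per1, Cdkn1a and Zfp36 belong to regions with higher values at CONS_140, and those of Hsd11b1 and Rora to regions with higher values at PEAK_140. No difference in sequence between these sets was tested.

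The depth was 2568317 and 2051977 tags in the PEAK_140 libraries and 6715803 and 3663062 tags in the CONS_140 libraries, so that constant infusion was sequenced more deeply. The values are normalised tag counts on a log2 scale after subtraction of input DNA, drawn towards the mean of the region where tags are few. A value below 1 stands for fewer than 2 normalised tags and is called the floor here. The share of regions at the floor was 8.24% and 12.9% at PEAK_140, 5.63% and 23.8% at CONS_140, and 76.0% and 81.8% at VEH. CONS_140 replicate 2 therefore had over 4 times as many regions at the floor as replicate 1. Counts of calls and medians at promoter and intergenic regions are also given without 1 of these libraries. Cell identity was read from phosphorylated RNA polymerase II (pSer2 Pol2) ChIP-Seq of the same groups, where 6 of 6 hepatocyte markers had values between 8.36 and 13.5 in the 4 libraries. The 5 Kupffer cell markers measured ranged from 3.59 to 6.39, the 3 endothelial markers from 2.42 to 6.70, and the stellate cell marker Pdgfrb, the highest of 4, was 4.34 and 4.45 at PEAK_140 and 7.39 and 5.47 at CONS_140. All 3 cholangiocyte markers measured (Krt19, Epcam and Sox9) were at the floor in the 4 libraries, and no marker was called between the groups.

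The strongest GR regions were largely common to both patterns, values of weaker regions differed more, and few single regions passed the test. The difference lay within 1 log2 unit at 2086 regions (52.4%), above 1 at 1390 (34.9%) and below -1 at 505 (12.7%). Of 3981 regions, 2 (0.0502%) differed between PEAK_140 and CONS_140 at an adjusted p below 0.05 and more than 1.5-fold, 1 higher and 1 lower at the pulse peak (0.0251% each). At an unadjusted p below 0.05 there were 454 regions (11.4%) with higher and 106 (2.66%) with lower values at PEAK_140. The regions were merged from the authors' peak lists, which were called on these libraries and were longer for PEAK_140 (3210 against 1723 peaks). Of the 454 regions, 408 were in the PEAK_140 list alone, and of the 106, 64 were in the CONS_140 list alone. Among the 1347 regions in both lists the split was 39 against 17. The split and the median over all regions therefore follow in part from how regions were chosen. The median difference, PEAK_140 minus CONS_140, was 0.58 on the log2 scale with quartiles of -0.21 and 1.36. Library medians were 4.04 and 3.69 at PEAK_140 and 3.73 and 2.99 at CONS_140. The groups overlapped, since the lower PEAK_140 library lay below the higher CONS_140 library, and the difference of the library medians had an exact two-sided permutation p of 0.667, where 0.333 is the smallest that 2 against 2 allows. Centring each library on its median took 0.51 from every difference and turned the split at unadjusted p below 0.05 from 454 against 106 to 241 against 217. A shift common to all regions by scaling cannot be told apart here from a general difference in binding.

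The small number of calls is not evidence of equal binding at each region. The 95% interval of a difference had a median half-width of 2.03, and it lay within 1 log2 unit of 0 at 15 regions and within 2 units at 639 regions (16.1%). Intervals, SEs and p-values rest on the spread within all 10 libraries, so that they also carry the spread of VEH and NADIR_180. With the 4 compared libraries alone, the interval lay within 1 log2 unit of 0 at 271 regions. The 15 regions ranked between 1 and 204 of 3981 at PEAK_140, so that none of them was among the weakly bound regions. The interval included 0 at 3421 regions (85.9%). The calls depended on the libraries used. Without CONS_140 replicate 1, 405 regions were called, 359 of them higher at PEAK_140, and without CONS_140 replicate 2, 7 were called, all lower at PEAK_140. No region was called when either PEAK_140 library was left out. In those fits the remaining library of a group is taken to vary like the other groups.

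**Figure D1:**
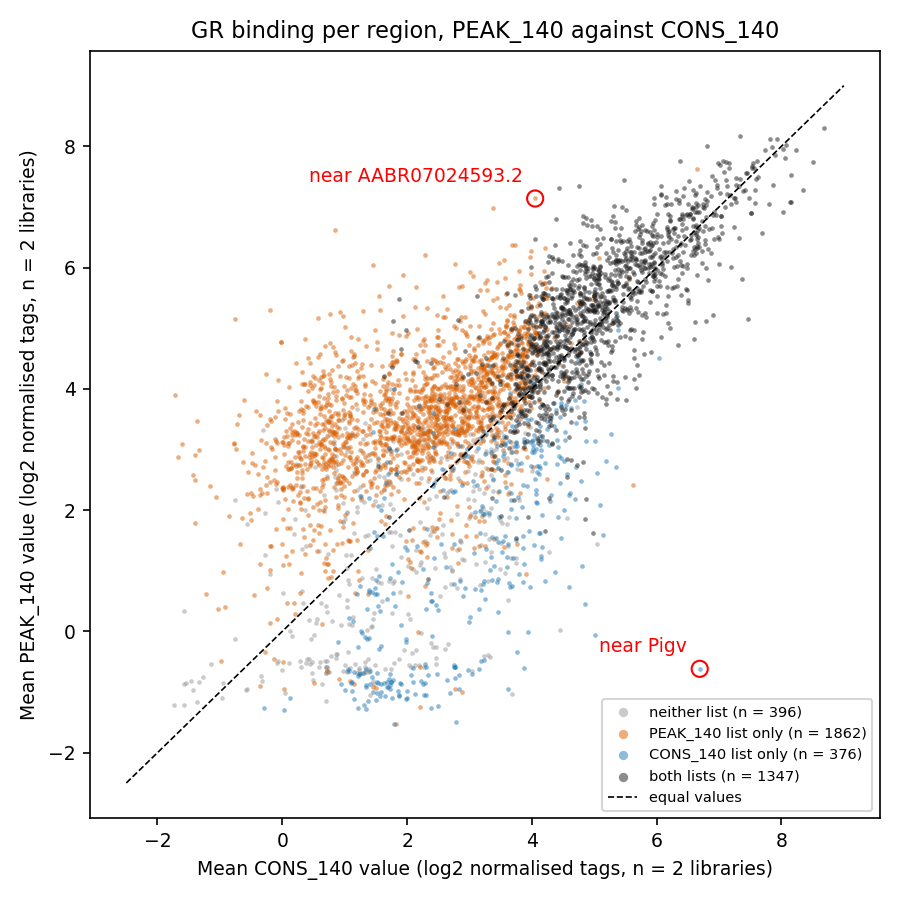
Mean GR value of each of the 3981 regions at PEAK_140 (y axis) against CONS_140 (x axis), both in log2 normalised tags over 2 libraries, coloured by the peak lists of the authors that hold the region. The 1347 regions in both lists lie along the line of equal values at the upper end, while the called regions near AABR07024593.2 and Pigv (red rings) lie far from it.

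The order of regions by strength was similar under both patterns, although less so than between replicates. Spearman's rho over the 3981 regions was 0.61 to 0.67 for the 4 pairs of 1 PEAK_140 and 1 CONS_140 library. It was 0.83 between the PEAK_140 libraries and 0.71 between the CONS_140 libraries. The median absolute difference told the same, at 0.87 to 1.17 log2 units across patterns against 0.51 and 0.74 between replicates. The PEAK_140 libraries were closer to those of CONS_180, with rho of 0.70 to 0.76, and the values against VEH were 0.21 to 0.27. These coefficients describe pairs of libraries over shared regions, which are not independent, and low values near the floor enter each of them. Among the 2717 regions at or above 1 in all 4 libraries, rho was 0.68 to 0.73 across patterns and 0.83 between replicates of either group.

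The strongest regions were mostly shared. Of the 100 regions highest in each of 2 libraries, 52 to 66 were common to a PEAK_140 and a CONS_140 library, 84 to the PEAK_140 libraries and 74 to the CONS_140 libraries. Of the highest 500, 330 to 364 were common across patterns, 417 to the PEAK_140 libraries and 390 to the CONS_140 libraries. By group means, 65 of the top 100 and 379 of the top 500 regions were the same. The 135 regions in the top 100 of either group differed by a median of 0.14, from -2.31 to 3.61, and 109 of them differed by less than 1. Of these 135 regions, 132 were in the peak lists of both groups, which held 33.8% of all regions. The lists were called on these libraries, so that regions picked for high values are in both lists largely by construction. Only 2 regions of the top 100 at PEAK_140 ranked below 1000 at CONS_140, and no region did the reverse.

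**Figure D2:**
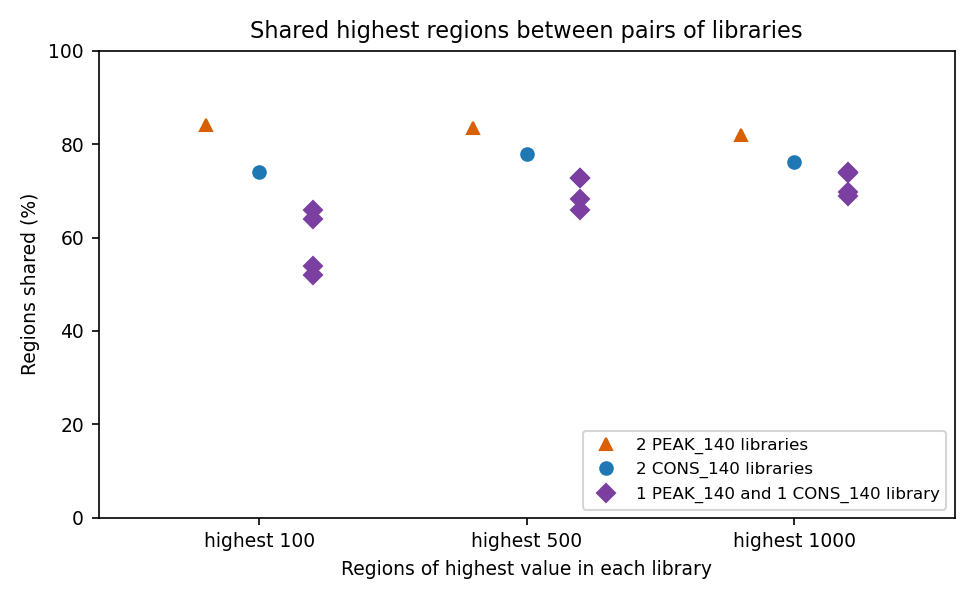
Share of regions (y axis, %) common to the 100, 500 or 1000 highest regions of 2 libraries (x axis), for the PEAK_140 pair, the CONS_140 pair and the 4 pairs across patterns. Pairs across patterns share 52.0% to 66.0% of the highest 100 and 68.8% to 74.1% of the highest 1000, below both replicate pairs at each size.

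Of the 10 regions with the highest mean over the 4 libraries, 9 differed by no more than 0.38 in either direction and none was called. The AABR07004100.2 region, rank 1 under both patterns, had values of 8.28 and 8.31 at PEAK_140, 8.65 and 8.70 at CONS_140, and 2.92 and 3.33 at VEH. Its difference was -0.38 with a 95% interval of -0.89 to 0.12. An intronic region of Zbtb16, a transcription factor known as a glucocorticoid-induced gene, had 7.80 and 7.91 at PEAK_140 and 7.91 and 7.88 at CONS_140, against -0.21 and 0.64 at VEH. The groups overlapped there, and the difference was -0.04 ± 0.94 (SE, n = 2 per group, spread from all 10 libraries). That SE also carries the spread at VEH and at NADIR_180, where the values were 3.65 and 0.06, and is not the spread of the 4 compared libraries alone. A region 1345 b into Map1lc3b, which encodes a protein of autophagosome membranes, had 7.88 and 7.61 at PEAK_140 and 8.56 and 8.47 at CONS_140. Its difference of -0.77 had an adjusted p of 0.354.

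The called region with a higher value at PEAK_140 was intergenic, 13451 b from the start of AABR07024593.2 on chromosome 16 (7803911 to 7804536). It had values of 7.18 and 7.10 at PEAK_140 and 4.16 and 3.95 at CONS_140, a difference of 3.09 ± 0.37 (SE) with an adjusted p of 0.0349. The VEH libraries held 3.42 and 3.43, close to CONS_140. At CONS_180 the values were 6.57 and 6.03, so that constant infusion sampled later lay nearer the pulse peak than constant infusion at the same time. This region ranked 72 at PEAK_140 and 1278 at CONS_140 and was in the PEAK_140 peak list alone. With median centring its adjusted p was 0.171, and over leaving out single libraries it ranged from 0.0113 to 0.282.

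The called region with a lower value at PEAK_140 lay in an exon near Pigv, an enzyme of glycosylphosphatidylinositol anchor synthesis, on chromosome 5 (151906426 to 151906953). Its values were -0.73 and -0.51 at PEAK_140 and 6.53 and 6.85 at CONS_140, with an adjusted p of 0.0349. Both PEAK_140 libraries were at the floor, so the fitted difference of -7.31 is not a bound on the fold. The VEH libraries held 2.74 and 2.48 and the CONS_180 libraries 1.63 and 0.11. High values in this region were therefore seen in the CONS_140 libraries and not in the same pattern at 180 min. Its adjusted p was 0.0113 to 0.265 when single libraries were left out.

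Just outside the threshold, 2 regions had an adjusted p of 0.0787 and 7 had 0.0909. A region near AABR07070714.2 on chromosome 8 had 7.36 and 7.27 at PEAK_140 and 4.60 and 4.27 at CONS_140. A region far from Il34, a ligand of the macrophage growth factor receptor, was at the floor at PEAK_140 with -0.45 and -0.24, and had 3.85 and 3.68 at CONS_140 and 2.46 and 2.64 at VEH. A region in intron 2 of Pck1, which encodes the key enzyme of gluconeogenesis, had -0.49 and -0.29 at PEAK_140, 3.61 and 2.98 at CONS_140, and 3.26 at both VEH libraries. The Pigv, Il34 and Pck1 regions thus held tags in the VEH and CONS_140 libraries and were at the floor at the pulse peak. The Pigv and Il34 regions were in the CONS_140 peak list and not in that of PEAK_140. The Pck1 region was in the VEH peak list and in neither of those lists. This order of values therefore follows in part from how regions were chosen. Over all regions, 30 had both PEAK_140 libraries below both VEH and both CONS_140 libraries. On the other side, a region near Mfsd8 had 5.21 and 5.09 at PEAK_140 and was at the floor at CONS_140 with -0.38 and -1.14. It was in the PEAK_140 list and not in that of CONS_140, so that the same limit holds.

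**Figure D3:**
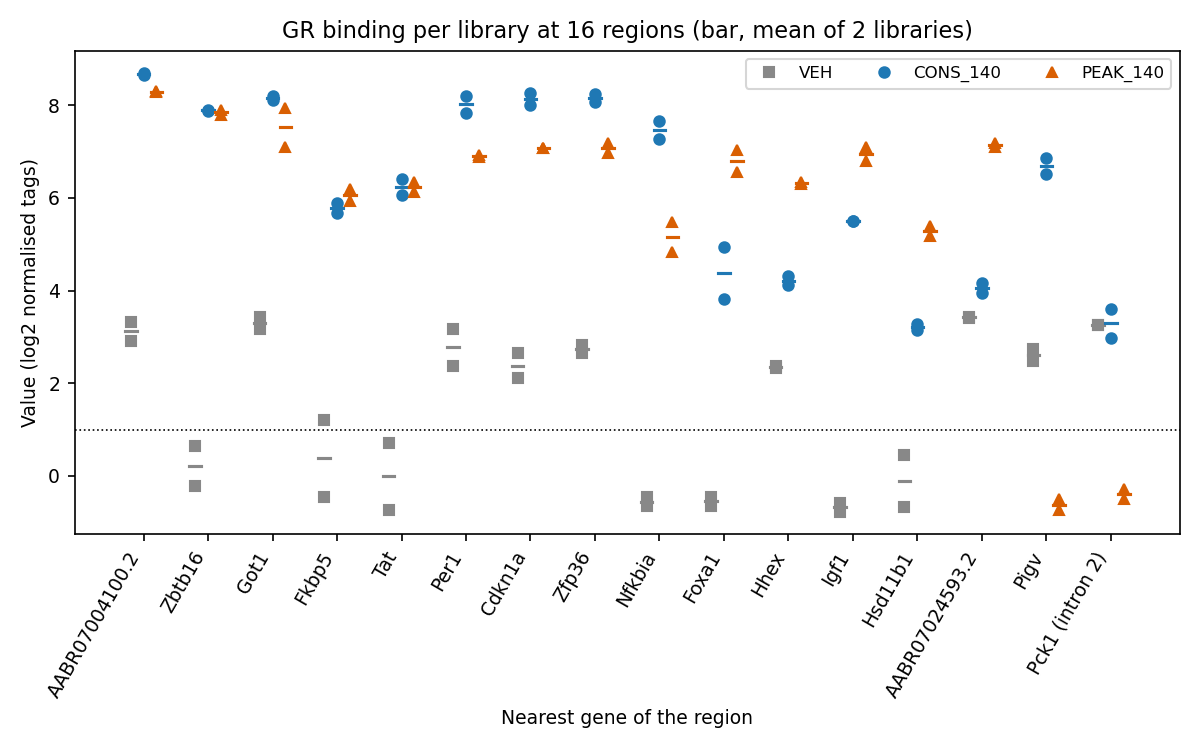
Value in each library (y axis, log2 normalised tags) at 16 regions named by nearest gene (x axis) for VEH (squares), CONS_140 (circles) and PEAK_140 (triangles), with a bar at the mean of 2 libraries and a dotted line at the floor of 1. The 5 regions on the left differ by at most 0.63 in either direction, the next 4 are higher at CONS_140, the following 5 are higher at PEAK_140, and those near Pigv and in intron 2 of Pck1 are at the floor at PEAK_140.

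Against the vehicle background, values were higher under both patterns at most regions. At 3523 regions (88.5%) the lower PEAK_140 library exceeded the higher VEH library, and at 2972 regions (74.7%) the lower CONS_140 library did so. The condition held for both groups at 2832 regions, for PEAK_140 alone at 691, for CONS_140 alone at 140 and for neither at 318. Both comparisons share the VEH libraries. Most regions were taken up as peaks of CORT libraries, so that values above VEH follow in part from that choice. The same holds for the larger share at PEAK_140, whose peak list was longer. PEAK_140 lay above CONS_140 without overlap at 1789 regions (44.9%) and below it at 406 (10.2%), and the groups overlapped at the remaining 1786. Of the 1789 regions, 1226 were in the PEAK_140 list alone, and of the 406, 144 were in the CONS_140 list alone.

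The authors' peak lists, made for each group, were of unequal length. The PEAK_140 list held 3210 peaks and the CONS_140 list 1723, of which 1346 overlapped by at least 1 b. They were 41.9% of the PEAK_140 list (Wilson 95% interval 40.2 to 43.6) and 78.1% of the CONS_140 list (76.1 to 80.0). These intervals cover counting error only. Peaks of the 2 lists had fixed widths of 396 b and 528 b. The lists do not divide the regions into bound and unbound. The 1862 regions in the PEAK_140 list alone had medians of 3.81 and 3.46 at PEAK_140 and 2.90 and 1.91 at CONS_140, against -0.78 and -0.94 at VEH, so that regions without a CONS_140 peak held tags at CONS_140 well above the vehicle level. The 376 regions in the CONS_140 list alone had medians of 2.06 and 1.09 at PEAK_140 and 4.28 and 2.30 at CONS_140. Since the lists were called on these libraries, the differences between such sets follow in part from how they were made and were not tested. Regions in both lists had a median difference of 0.28 and a rho of 0.66 to 0.76 across patterns.

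The difference between patterns varied with the place of a region in the genome, and this rested on 1 library. The median difference was 0.63 over 1918 intergenic regions and 0.66 over 1534 intronic regions. It was -0.03 over 333 regions at promoters, -0.16 over 108 exonic regions and 0.34 over 88 regions at transcript ends. By distance to the nearest transcription start site (TSS) it went from -0.08 within 1 kb (474 regions) to 0.55 at 1 to 10 kb, 0.64 at 10 to 50 kb and 0.85 beyond 100 kb (309 regions). PEAK_140 lay above CONS_140 without overlap at 26.1% of promoter regions and 48.9% of intergenic regions, against 44.9% of all regions.

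Within libraries, the median of promoter regions minus that of intergenic regions was -0.45 and -0.57 at PEAK_140. At CONS_140 it was 0.62 in replicate 1 and -0.41 in replicate 2, so that replicate 2 resembled the PEAK_140 libraries and replicate 1 did not. The VEH libraries gave 0.78 and 0.04. Without CONS_140 replicate 1 the median difference was 0.65 at promoters and 0.83 at intergenic regions, and without replicate 2 it was -0.74 and 0.43. The part that depth or background in CONS_140 replicate 1, the library with the most tags, had in this was not tested. In regions of both peak lists the classes lay closer together, with medians of 0.10 at 104 promoter regions and 0.32 at 638 intergenic regions.

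**Figure D4:**
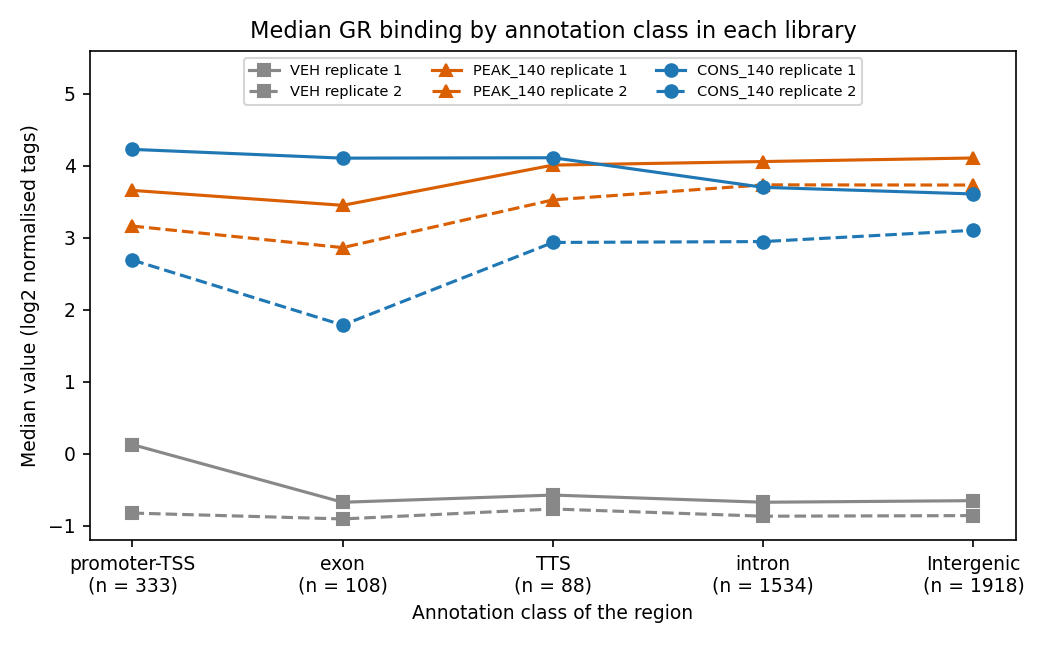
Median GR value (y axis, log2 normalised tags) by annotation class (x axis) in each VEH, PEAK_140 and CONS_140 library, with replicate 1 as a solid and replicate 2 as a dashed line. CONS_140 replicate 1 falls from 4.23 at promoters to 3.61 at intergenic regions, while CONS_140 replicate 2 and both PEAK_140 libraries are higher at intergenic regions than at promoters.

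The difference also varied with the strength of binding, in part through how the regions were chosen. In 10 bins of 398 or 399 regions by their mean over the 4 libraries, the median difference was -0.91 in the lowest bin, 1.71 in the next, between 0.44 and 1.42 in those above, and 0.27 in the highest bin. In the lowest bin the PEAK_140 medians were at the floor, at -0.52 and -0.51, and 20.6% of those regions were in the VEH peak list, against 1.51% in the highest bin. In bins 2 to 5, counted from the lowest, 0.754% to 4.52% of regions were in both peak lists, against 99.7% in the highest bin. Few of the weaker regions were thus in both lists, and a relation to strength cannot be told apart from that choice.

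The regions had 2736 nearest genes, of which 728 had 2 or more regions. All differences were above 0 at 350 of these genes, all were below 0 at 57, and 321 had regions of both signs. Of the 60 genes with 5 or more regions, 13 had all differences above 0 and 5 had all below 0. The 5, chosen after their values were seen, were Pck1, Smad7, Mir3591, RF00002 and AABR07046778.1. PEAK_140 lay below CONS_140 without overlap at 2 of 6, 2 of 5, 2 of 7, 4 of 7 and 2 of 5 of their regions, in that order. Outside Smad7, the sign at some regions rested on 1 CONS_140 library while the other was at the floor. A Pck1 region with 6.56 and -1.05 at CONS_140 was 1 of these. Smad7 inhibits signalling by transforming growth factor beta, and its 5 regions ranged from -1.15 to -0.17 with none called. The 6 regions of Pck1 ranged from -3.68 to -0.12. The 2 strongest of them, at the promoter and 5610 b upstream, differed least. The promoter region had 6.34 and 6.15 at PEAK_140 and 6.59 and 6.66 at CONS_140, and the upstream region had 5.28 and 5.91 against 5.67 and 5.76. At Xbp1, a factor of the unfolded protein response whose 5 regions were likewise chosen after their values were seen, differences ranged from 1.96 to 3.61. Its region 14303 b upstream had 7.10 and 6.87 at PEAK_140, 3.89 and 2.86 at CONS_140 and 6.40 and 5.06 at CONS_180, with an adjusted p of 0.0909.

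Of 160 genes in 7 lists of liver biology, 105 were the nearest gene of at least 1 region, with 286 regions in all. None of these regions was called, which at 0.0502% called over all regions says little about the lists. PEAK_140 lay above CONS_140 without overlap at 36.4% of them and below it at 9.79%, against 44.9% and 10.2% of all regions, and their median difference was 0.39 against 0.58. In both peak lists were 48.3% of them, against 33.8% of all regions. When each gene was represented by its strongest region, 64 of 105 differed by less than 1, 31 by more than 1 and 10 by less than -1. These strongest regions were in both peak lists for 73 genes.

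Among GR feedback and classic target genes, 13 of 18 had regions, and the median over their 40 regions was -0.07, with 17.5% above and 20.0% below without overlap, against 44.9% and 10.2% of all regions. Fkbp5 encodes a co-chaperone that restrains GR. Its region 1338 b upstream had 6.18 and 5.94 at PEAK_140, 5.68 and 5.89 at CONS_140, and -0.46 and 1.21 at VEH. All 4 CORT libraries lay well above both VEH libraries, and the difference of 0.28 had a 95% interval that included 0 (adjusted p = 0.902). That interval also carries the spread at VEH and at NADIR_180, where the values were 2.92 and -0.21. Dusp1, a phosphatase that dampens inflammatory kinase signalling, had 5.48 and 5.38 at PEAK_140 and 5.40 and 5.06 at CONS_140 in its region 4571 b upstream. Mt2A, a metallothionein, had 8.40 and 7.94 at PEAK_140 and 7.17 and 7.50 at CONS_140, ranking 2 and 38.

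Of the 19 strongest regions in the feedback and inflammation lists, 9 lay above and 6 below without overlap at PEAK_140 and 4 overlapped, against 44.9% above and 10.2% below over all regions, and none was called. Values of 5 of the 6 lower regions are given here, chosen after they were seen. Per1, a clock repressor, had 6.88 and 6.94 at PEAK_140 and 8.21 and 7.84 at CONS_140 in its region 3317 b upstream (difference -1.12 ± 0.33, SE, adjusted p = 0.261). At CONS_180 that region had 6.83 and 6.61, close to the pulse peak. Cdkn1a, an inhibitor of the cell cycle, had 7.08 and 7.07 at PEAK_140 against 8.26 and 8.00 at CONS_140. Klf9, a transcription factor induced by glucocorticoids, had 6.36 and 6.78 against 7.73 and 7.63. The values of Zfp36, which destabilises cytokine mRNAs, were 7.20 and 6.98 against 8.24 and 8.07. Nfkbia, the inhibitor of NF-kB, had the widest gap, with 4.84 and 5.47 at PEAK_140, 7.66 and 7.28 at CONS_140 and 6.32 and 6.45 at CONS_180 in an intronic region, and it ranked 825 and 32 (adjusted p = 0.271). The opposite order was seen at Il1rn, the interleukin 1 receptor antagonist, with 4.07 and 3.74 against 2.51 and -1.03 (adjusted p = 0.363), and in an intron of Hsd11b1, the enzyme that regenerates active glucocorticoid, with 5.39 and 5.17 at PEAK_140 and 3.28 and 3.16 at CONS_140 (adjusted p = 0.352).

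Among genes of glucose and amino acid metabolism, 27 of 35 had regions, and the median over 76 regions was -0.11. Tat, tyrosine aminotransferase, had 6.34 and 6.13 at PEAK_140 and 6.41 and 6.07 at CONS_140 in its region 2488 b upstream. Its difference was -0.0002 ± 0.58 (SE), with the groups overlapping. The promoter region of Got1, a cytosolic aminotransferase, had 7.11 and 7.93 against 8.20 and 8.11 and ranked 30 and 5. Cps1, which opens the urea cycle, had 6.60 and 6.71 against 6.54 and 6.82. Ass1, a later urea cycle enzyme, lay lower at PEAK_140, with 5.68 and 5.95 against 7.75 and 6.98 (adjusted p = 0.400). Slc2a2, the hepatic glucose transporter, lay higher, with 5.92 and 5.38 against 4.56 and 4.04 (adjusted p = 0.505). G6pc, the last enzyme of glucose release, had a promoter region with 1.01 and 4.34 at PEAK_140 and 5.42 and 1.28 at CONS_140, where replicates differed more than groups did.

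For lipid metabolism, 21 of 33 genes had regions, with a median of 0.60 over 38 regions. Lpin1, a phosphatidate phosphatase, had 7.65 and 7.82 at PEAK_140 and 7.08 and 7.26 at CONS_140. Cpt1a, the gatekeeper of fatty acid entry into mitochondria, had 6.52 and 5.99 against 6.30 and 6.10, with overlap. Cyp7a1, the rate-limiting enzyme of bile acid synthesis, had 5.87 and 5.68 against 5.25 and 5.27.

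The circadian clock list had 10 of 19 genes with regions and a median of 0.41 over 15 regions, and its members lay on both sides. Arntl, the clock activator, had 6.17 and 6.07 at PEAK_140 and 5.63 and 5.99 at CONS_140. The values of Rora, a nuclear receptor that activates Arntl, were 6.08 and 5.30 against 4.28 and 3.81 (adjusted p = 0.460). Bhlhe40, a repressor of the clock, had 4.82 and 4.90 against 6.55 and 5.59 (adjusted p = 0.426).

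Among liver transcription factors and nuclear receptors, 12 of 22 genes had regions, with a median of 0.63 over 38 regions. Nr0b2, a repressor in bile acid feedback, had 7.33 and 7.58 at PEAK_140 and 7.66 and 7.52 at CONS_140. Hnf4a, a master factor of hepatocyte identity, had 5.74 and 6.13 against 6.20 and 5.34, with overlap. Foxa1, a pioneer factor, was the nearest gene of a region 110972 b away with 7.04 and 6.57 at PEAK_140 and 4.93 and 3.83 at CONS_140 (difference 2.42 ± 0.60, SE, adjusted p = 0.200). Hhex, a homeobox factor of liver development, had 6.34 and 6.30 against 4.31 and 4.11 in its strongest region (difference 2.11 ± 0.42, SE, adjusted p = 0.169).

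For plasma proteins and the growth axis, 17 of 21 genes had regions and the median was 0.88 over 71 regions. Of these regions, 52.1% lay above and 1.41% below without overlap, against 44.9% and 10.2% of all regions. Igf1, the main mediator of growth hormone, had an intronic region with 7.10 and 6.81 at PEAK_140 and 5.51 in both CONS_140 libraries, against -0.58 and -0.77 at VEH (difference 1.44 ± 0.52, SE, adjusted p = 0.289). Socs2, a brake on growth hormone signalling, had 6.63 and 5.75 against 4.04 and 4.51 (adjusted p = 0.448). Cish, of the same family, had 6.33 and 5.76 against 3.88 and -0.97, with a replicate at the floor (adjusted p = 0.271). Alb, the major plasma protein, had its strongest region at 6.81 and 7.31 against 6.47 and 6.79. Of the inflammation list, 7 of 14 genes had regions with a median of 1.08 over 12 regions. Il6r, the interleukin 6 receptor, had 7.65 and 7.64 against 7.51 and 7.56, and Il1r1, the interleukin 1 receptor, had 6.02 and 5.24 against 3.61 and 4.02 (adjusted p = 0.271).

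**Figure D5:**
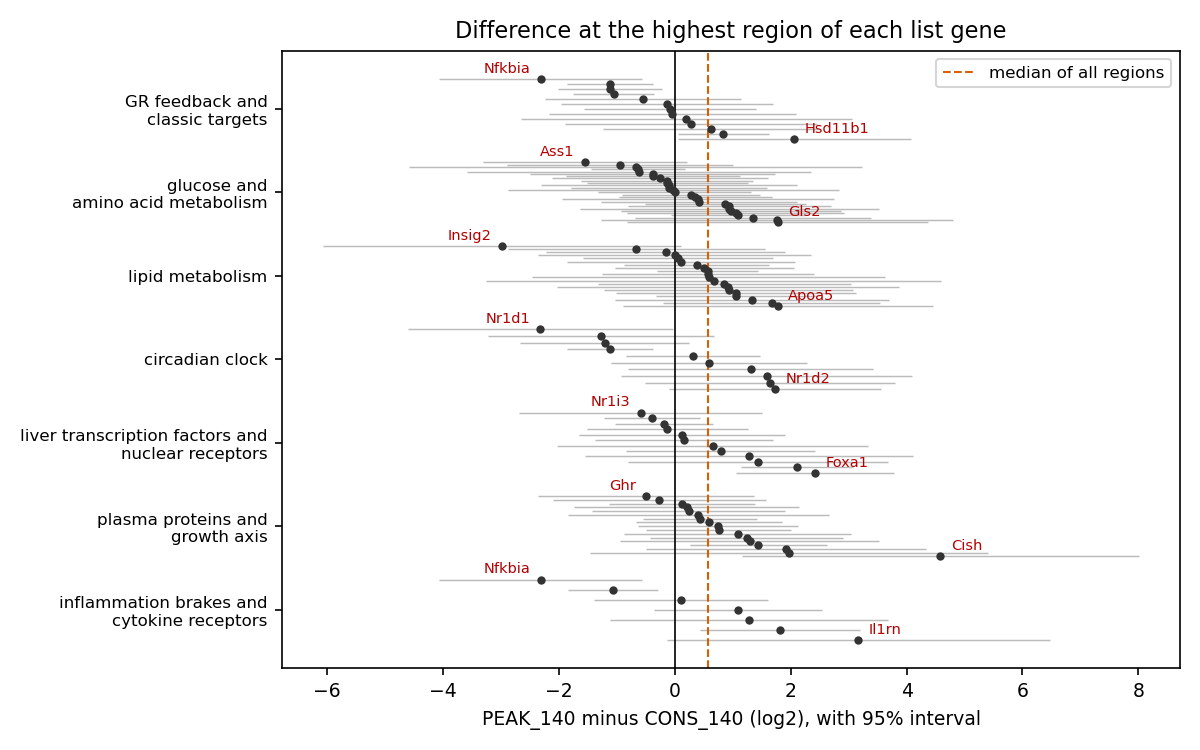
Difference between PEAK_140 and CONS_140 (x axis, log2) with its 95% interval at the strongest region of each list gene reported here, grouped by list (y axis), with the lowest and highest gene of each list labelled and the median of all regions, 0.58, as a dashed line. Intervals of most genes cross 0, and the extremes run from Insig2 at -2.98 to Cish at 4.59.

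Transcription at these genes was read from pSer2 Pol2, the elongating form of RNA polymerase II, over gene bodies in the same groups. Of 38315 regions tested, 10 (0.0261%) were called between PEAK_140 and CONS_140, 2 higher and 8 lower at PEAK_140, belonging to 5 genes, and 3336 (8.71%) had an unadjusted p below 0.05. Cxcl10, a chemokine, was higher at PEAK_140 with 6.76 and 6.56 against 3.63 and 2.44. The lower genes were Insig2 (6.69 and 6.75 against 9.32 and 9.10), Slco1b2, Klf12 and Ces1f. The GR regions nearest to Slco1b2, Klf12 and Ces1f differed by -0.21 to 0.97, and Cxcl10 was the nearest gene of none. The GR region nearest to Insig2, which restrains cholesterol synthesis, had -0.65 and 3.26 at PEAK_140 and 4.21 and 4.36 at CONS_140. With the replicate number as a block over the 8 CORT libraries, 747 regions of 339 genes were called, 47 higher and 700 lower. CONS_140 replicate 1 had a median value of 2.84 against 2.36 to 2.38 in the other 3 libraries. Without CONS_140 replicate 2, 8579 regions were called, nearly all lower at PEAK_140, and without either PEAK_140 library none were.

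Among the genes of the 7 lists, GR and pSer2 Pol2 values could be set side by side. Igf1 had pSer2 Pol2 values of 9.94 and 10.3 at PEAK_140 and 8.39 and 8.08 at CONS_140, against 10.6 and 10.4 at VEH (adjusted p = 0.0711, and 0.0384 with the replicate block). Socs2 had 8.00 and 7.15 against 4.88 and 2.63 (adjusted p = 0.0749, and 0.0325 with the block), and Cish had 9.06 and 8.85 against 6.44 and 2.62 (0.0983, and 0.0425 with the block). These 3 genes were picked after their values were seen, and the assays often differed. Of the 105 list genes, 50 had a strongest GR region higher at PEAK_140 without overlap, and pSer2 Pol2 was higher without overlap at 13 of them, lower at 19 and overlapping at 18. Of the 17 with a lower GR region, pSer2 Pol2 was lower at 13 and overlapping at 4. Of the 38 whose GR values overlapped, pSer2 Pol2 was higher at 6, lower at 20 and overlapping at 12. Lower pSer2 Pol2 at PEAK_140 was thus seen under each order of GR values, but not at the same share. It held at 13 of 17 genes with lower GR, 20 of 38 with overlap and 19 of 50 with higher GR. None of the 17 genes with lower GR had higher pSer2 Pol2. A link between the assays was not tested. Over all pSer2 Pol2 regions, 11.2% were higher and 20.5% lower without overlap. Prox1, a factor of liver development, had GR values of 6.05 and 5.83 against 4.76 and 4.57, and pSer2 Pol2 values of 7.84 and 7.86 against 9.52 and 8.98 (adjusted p = 0.142, and 0.0462 with the block). Fkbp5 had a close GR value upstream, while its intronic region, also in both peak lists, had 4.37 and 4.48 at PEAK_140 and 5.04 and 5.42 at CONS_140 (adjusted p = 0.648). Its pSer2 Pol2 values were 5.64 and 5.61 against 7.94 and 7.28 and 4.55 and 3.04 at VEH (adjusted p = 0.168, and 0.0426 with the block). Tat was close in both assays, with pSer2 Pol2 values of 12.8 and 12.6 against 12.9 and 12.7. Pck1 was also close in pSer2 Pol2, with 13.1 and 12.5 against 12.9 and 12.6, beside the region in its intron 2 that was at the floor at PEAK_140.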

How the data were processed

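GR and pSer2 Pol2 ChIP-Seq values of liver from PEAK_140, NADIR_180, CONS_140, CONS_180 and VEH were used, 2 libraries each, grouped by their labels. The label of the GR library called CONS_140 replicate 2 carries the number 25, which was read as 2. The authors deposited log2 values per region and library. According to the methods and processing notes, reads were trimmed with Trimmomatic 0.36, aligned with bowtie2 to rn6, freed of duplicates with SAMtools, and called as peaks over input with HOMER 4.9.1 and an irreproducible discovery rate filter. The peak lists of the groups were merged into 3981 regions, and nearest genes are those of the file. The sources describe normalisation both to tags in binding regions and to total tags. The values are not whole, fall below 0 and are shrunk where tags are few, and the notes name DESeq2. They are not counts, so no count test was run, and fold changes of weak regions are understated.

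For the comparison, limma 3.58.1 was run in R 4.3.3 (all 10 libraries of an assay, variance trend, Benjamini-Hochberg adjustment over all regions). A region was called at an adjusted p below 0.05 and more than 1.5-fold (0.585 on the log2 scale), and intervals are 95%. pSer2 Pol2 was tested in 38315 regions, and a gene was read at its region with the highest mean over the 4 libraries. Same-numbered libraries deviated together in pSer2 Pol2 (correlations of 0.15 to 0.55 between groups) and not in GR, so that blocked values stand beside pSer2 Pol2 results. Shared peaks were those that bedtools 2.31.1 found to have at least 1 b in common. Plots used matplotlib 3.10.9 (Python 3.11.15). The test was checked on simulated data. Named were every called region, the 5 regions with the smallest p in each direction, the 10 of highest mean over the 4 libraries, and the strongest region of each list gene (124 in all). The members and lists were chosen with earlier results of these data known. Tag counts that the study describes in its supplement, the authors' own fold changes and p-values, the RNA-Seq data and the 180 min peak lists were not used. No rn6 genome was at hand, so region sequences are limited to the motif matches. Whether pools of different rats were taken on different days is not given in the sources used here, so p-values measure the spread between pools. That spread is taken over all groups of an assay and not over PEAK_140 and CONS_140 alone. Alternatives in normalisation, samples, filters and replicates are given at the end. Values of some list and marker genes are not reported here, although they remain in the counts over lists.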

Additional observations from a re-analysis of the deposited data

How the results depend on the processing

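Counts of called GR regions moved with the fit, between 0 and 405, against 2 as reported. There were 20 with the 4 libraries alone, 11 at an adjusted p below 0.10, 9 with quantile normalisation, 1 with median centring, 1 among regions at or above 1 in the 4 libraries, and 0 without VEH, without the variance trend or with the replicate block over 8 CORT libraries. At an unadjusted p below 0.05, the last 3 gave 506, 581 and 585 regions. Leaving out single libraries gave 0 to 405. Same-numbered GR libraries did not deviate together (correlations of -0.03 to 0.07 between groups), so this block shows no pairing. Regions whose interval lay within 1 log2 unit of 0 numbered 15 as reported, 271 with the 4 libraries alone, 48 with the replicate block, 29 with quantile normalisation, 0 with median centring, 0 without the variance trend, and 3 to 4 without single libraries. The median difference of 0.58 became 0.0806 with quantile normalisation, and 0.31 to 0.82 without single libraries. The rho of group means was 0.72, or 0.76 among regions at or above 1 in the 4 libraries, and 0.63 to 0.71 without single libraries. Median centring lowered the intergenic median to 0.13 and the intronic median to 0.15. Called pSer2 Pol2 regions numbered 10 as reported, 0 with the 4 libraries alone, 257 with median centring, 747 with the replicate block, and 0 to 8579 without single libraries. The cause of these moves was not tested. Of the 124 named regions, 21 changed the sign of their difference with median centring and 10 to 12 without single libraries, and no called sign turned. Peak shares by at least 50% of the shorter peak were 41.5% and 77.4%. The planned restriction of the peak lists by score was not run, because the lists hold no score. In the fit of all 10 libraries, a typical 95% interval reached 2.03 log2 units either side of a difference. Smaller differences at a single region were mostly not detectable in that fit. It had 2 libraries per group and 1 PEAK_140 library of 2051977 tags. Its spread was also taken from the VEH and NADIR_180 libraries, where 46.9% to 81.8% of regions were at the floor. The part that each of these had in the width was not tested.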
